A study of Mus musculus with 576 samples.

Results

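The expression of 10 genes of the Pdgf and Vegf pathways was followed across the cells that make or receive these signals in the mouse dorsal pancreas at embryonic day 12.5: the ligands Pdgfa, Pdgfb, Pdgfc, Vegfa, Vegfc and Angpt1 and the receptors and co-receptor Pdgfra, Kdr, Flt1 and Nrp1. They were taken by symbol, and each of the 10 was found among the 36658 gene identifiers of all 3 count tables. Single GFP+ cells were sorted from 3 mouse lines and sequenced with the Smart-seq2 method, on 2 plates of 96 wells a line. In Nkx2.5-Cre;R26mTmG embryos, and likewise in those with Nkx3.2-Cre;R26mTmG, GFP marked cells that had expressed the driver of the Cre recombinase and the descendants of such cells. In Prox1-GFP embryos a transgene reported the activity of Prox1. No group is described as lacking a gene. The strain names give both Cre alleles as targeted, and whether the targeted copies still work is not given in the sources used here. Mesothelial cells came from the Nkx2.5 and Nkx3.2 lines, epithelial and endocrine cells from the Prox1 line, and mesenchymal cells from all 3. Since no embryo is named in the labels, a line counts as a single sample, its cells do not stand as replicates, and neither a test nor a p-value was made from them.

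Platelet-derived growth factors are dimeric ligands of receptor tyrosine kinases. In many embryonic organs an epithelial or surface layer makes the Pdgfa and Pdgfc chains while the mesenchyme beneath carries Pdgfra, and this pairing guides growth and spread of the mesenchyme. Vegf ligands act mainly on endothelial cells through Kdr and Flt1, Nrp1 is a co-receptor that binds both Vegfa and class 3 semaphorins, and Angpt1 is made by cells around vessels and activates the endothelial receptor Tek. In the embryonic pancreas, Vegfa from the epithelium is known to attract and shape the vessels of the bud.

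Of 576 wells, 549 passed the filters, with a median of 901156 counts a cell (range 224814 to 1512736). They were 86 epithelial and 19 endocrine cells, 28 mesothelial cells (23 with Nkx3.2-Cre, 5 with Nkx2.5-Cre) and 413 mesenchymal cells (77 of them Prox1-GFP), and 3 cells were set aside. Epithelial cells were called tip-like (37), trunk-like (21) or left unnamed (28 cycling cells), and mesenchymal cells fell into proliferating-like (77), splenopancreatic-like (60), mural-like (41) and M-III-like (22) cells and the unnamed clusters 0 (87), 3 (65) and 4 (61), of which cluster 0 had hemoglobin genes among its leading genes. Classes and clusters were named from marker genes, and the 4 classes are written without the ending -like. They held most of their defining genes, with the mesothelial gene Upk3b at 572 CPM, counts scaled to the same total in every group, in mesothelium and at most 0.702 CPM elsewhere. Msln, on the same marker list, did not follow, with 1.04 CPM in mesothelium and 2.52 CPM in splenopancreatic-like cells. Npnt, on the splenopancreatic list, was at 101.6 CPM in splenopancreatic-like cells and at 292.8 CPM in M-III-like cells. Ptf1a, on the tip list, was at 73.9 CPM in tip-like cells and at 89.2 CPM in the cycling epithelial cells. Neurog3, a gene of endocrine progenitors, was at 326 CPM in trunk-like cells, 35.3 CPM in tip-like cells and 2.4 CPM in the cycling cells. Endothelial cells, the main targets of Vegf and Angpt1, were not among the sorted classes: Cdh5 and Cldn5 were at 0 in all 4 classes, Sox17 had 1 count, and the summed level of 10 endothelial markers ranged from 57.7 to 80.1 CPM, most of it from Pecam1 and Egfl7. Others of the 10 were found in a few mesenchymal cells: Plvap with 1096 counts in 35 of 413 cells, Robo4 with 357 counts in 3 cells and Erg at 0.131 CPM in 35 cells. Each line had plates of its own, so in every comparison between lines plate and batch cannot be told apart from the line. The libraries of the Prox1 line also carry numbers far from the rest. Mesenchymal cells had a median of 5745.5 detected genes in the Nkx2.5 line and 7221 in the Nkx3.2 line.

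The promoter windows of Pdgfc, Pdgfra and Nrp1, the member with the highest level per kilobase in mesothelium, mesenchyme and epithelium, are shown first, as the 250 bases before the RefSeq transcription start on GRCm38.p6, 5′ to 3′ on the strand of the gene. Windows were found for 8 of the 10 genes, 10 windows in all. Capitals mark the GC box GGGCGG, read on both strands. Pdgfc lies at chr3:81036166-81036415 (+), Pdgfra at chr5:75152001-75152250 (+) and Nrp1 at chr8:128358823-128359072 (+).
Pdgfc: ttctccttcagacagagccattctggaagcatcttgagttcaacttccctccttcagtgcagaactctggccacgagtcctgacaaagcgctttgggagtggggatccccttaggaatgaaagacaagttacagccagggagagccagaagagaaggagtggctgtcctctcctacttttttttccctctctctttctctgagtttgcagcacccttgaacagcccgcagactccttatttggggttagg
Pdgfra: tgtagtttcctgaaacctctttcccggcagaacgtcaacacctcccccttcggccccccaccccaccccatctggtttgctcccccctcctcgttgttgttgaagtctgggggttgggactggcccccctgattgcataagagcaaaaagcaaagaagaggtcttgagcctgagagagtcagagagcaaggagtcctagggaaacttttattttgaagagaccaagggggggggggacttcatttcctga
Nrp1: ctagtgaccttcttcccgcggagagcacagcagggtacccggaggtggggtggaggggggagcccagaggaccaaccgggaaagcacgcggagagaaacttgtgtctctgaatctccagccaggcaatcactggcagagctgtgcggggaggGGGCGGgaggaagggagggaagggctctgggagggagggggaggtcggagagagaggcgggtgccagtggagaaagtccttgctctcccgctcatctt
A GC box was found in 8 windows of 6 of the genes, Vegfa, Vegfc, Kdr, Flt1, Nrp1 and Pdgfa, and in 32.7% of 32851 promoters of the same length. The windows of Pdgfc and Pdgfra held no GC box, and 50.8% and 54.4% of their bases were G or C, near the median of 52.4% over all promoters, while the Nrp1 window held 1 box at 64.4%. The hypoxia core ACGTG, present in 16.6% of all windows, was found once among the 10 windows, in the downstream window of Vegfa, and the TATA box TATAAA, present in 12.4%, once, in that of Flt1. A match describes letters and is not a binding site.

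The dot plot gives all 10 genes in every class and cluster. Levels between genes are compared only per kilobase of exon. On that scale, Pdgfc led in mesothelium (56.2 CPM per kb) ahead of Pdgfa (14.6), Pdgfra led in mesenchyme (19.1) ahead of Nrp1 (9.15) and Pdgfc (9.09), Nrp1 led in epithelium (11.6) ahead of Pdgfa (6.66), and Pdgfa led in endocrine cells (10.8) ahead of Vegfa (1.96). Flt1, Pdgfb and Vegfc did not reach 3 CPM in any of the 4 classes. In the text, CPM are pooled, the summed counts of a gene over the summed counts of all genes in a class, and a gene was detected in a cell at 1 count or more.

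**Figure D1:**
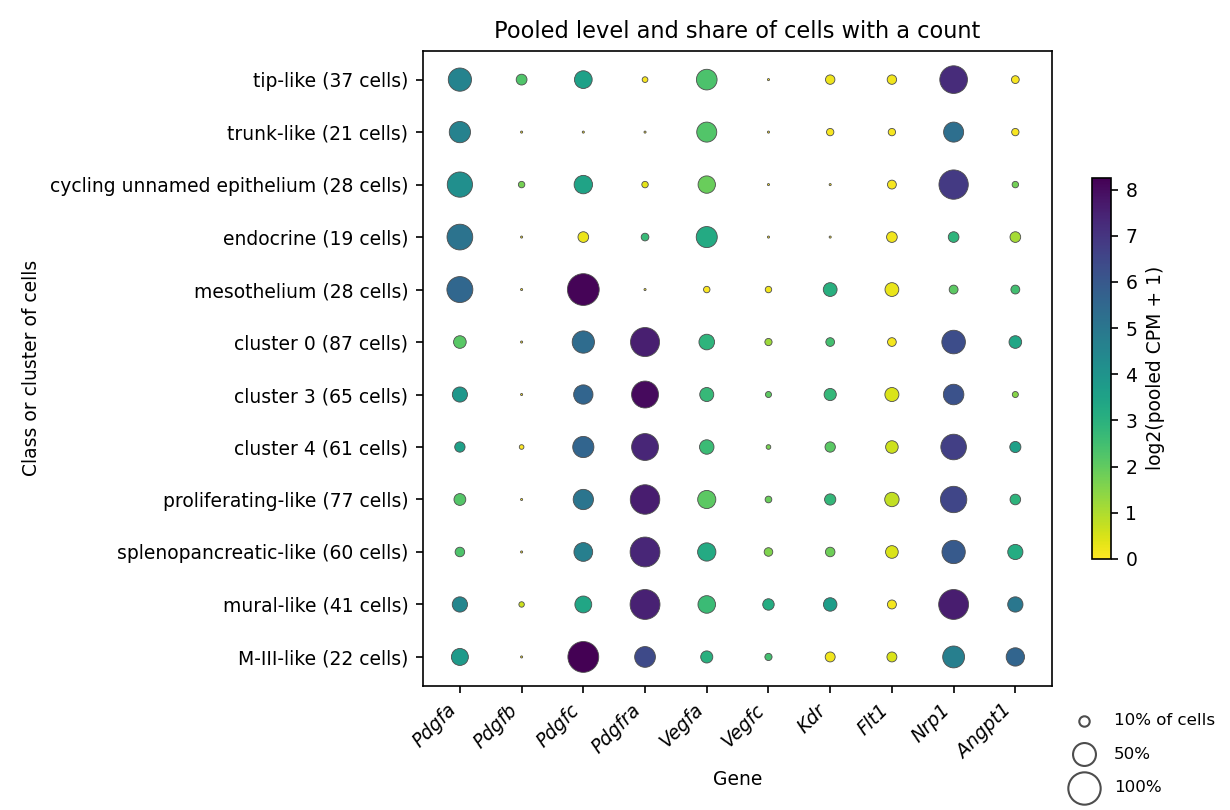
Pooled level and detection of the 10 genes (columns) in 4 classes and their subclusters (rows), where colour is log2(pooled CPM + 1) and dot area the percentage of cells with at least 1 count. Pdgfra is dark across the mesenchymal rows and blank in mesothelium (0 of 28 cells), and Pdgfc is darkest in M-III-like cells (305 CPM) and mesothelium (286 CPM).

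The Pdgf ligands were unevenly spread over the classes. Pdgfc, a ligand of Pdgfra that has to be cut by proteases outside the cell before it can act (chr3:81036416-81214040 on GRCm38, plus strand), was detected in 27 of 28 mesothelial cells, at 752 and 332 CPM on the plates of the Nkx2.5 line (3 and 2 cells) and at 159.99 and 225 CPM on those of the Nkx3.2 line (3 and 20 cells). The median mesothelial cell had 221 CPM and the highest 1112 CPM. In mesenchyme it was detected in 41.4% of 413 cells (95% exact binomial interval 36.6 to 46.3), at 34.4 and 39.2 CPM on the Nkx2.5 plates, 33.3 and 43.6 CPM on the Nkx3.2 plates and 167.4 and 49 CPM on the Prox1 plates. Only the first Prox1 plate came near the mesothelial plates, and it lay above the lowest of them, the 3 cells at 159.99 CPM. Epithelium stood at 7.81 and 8.85 CPM on its plates with 20 of 86 cells positive, and the endocrine cells held 3 counts in all (0.190 CPM). Within the epithelium, tip-like cells (10.9 CPM) and cycling cells (9.98 CPM) had Pdgfc, and 0 of 21 trunk-like cells did.

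Pdgfa, the other main ligand of Pdgfra (chr5:138976014-138997370, minus strand), was found in endocrine cells at 38.5 and 30.3 CPM on the Prox1 plates and in the other epithelium at 23.4 and 17.7 CPM. Shares of positive cells were 63.2% of 19 endocrine cells and 52.3% of 86 epithelial cells, and 57.9% and 45.3% after thinning every cell to 100000 counts. Tip-like cells had 22.8 CPM and trunk-like cells 22.9 CPM. The mesothelium of the Nkx3.2 line had 51.3 and 58.6 CPM on its plates with 17 of 23 cells positive, but in the 5 mesothelial cells of the Nkx2.5 line it was found in 1 cell with 5 counts (0.988 CPM). Mesenchyme was low, at 3.05 to 13.6 CPM over the 6 plates with 63 of 413 cells positive (15.3%), so that the plates of the epithelium, the endocrine cells and the Nkx3.2 mesothelium all lay above it. On the second Prox1 plate 73.6% of the mesenchymal Pdgfa counts came from 1 cell of 340.5 CPM. Pdgfb, a ligand that endothelial cells use to recruit mural cells, was at 0 in endocrine cells and mesothelium, in 5 of 86 epithelial cells (2.48 CPM), 4 of them tip-like, and in 2 of 413 mesenchymal cells.

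Pdgfra, the receptor for these chains (chr5:75152292-75198215, plus strand), marked the mesenchyme. It had 173.1 and 252 CPM on the Nkx2.5 plates, 179.9 and 176.3 CPM on the Nkx3.2 plates and 170.6 and 165.9 CPM on the Prox1 plates. Apart from the second Nkx2.5 plate, the plates lay within a narrow band. It was detected in 316 of 413 mesenchymal cells (76.5%, interval 72.1 to 80.5; 71.4% after thinning), with a median of 131.3 CPM and a highest cell of 1723 CPM. No count was found in 28 mesothelial cells, which allows a share of up to 12.3% (exact binomial), nor on the second Prox1 plate in the epithelium. The epithelium held 9 counts in 2 of 86 cells (0.124 CPM), a class that should lack the gene, and the endocrine cells held 87 counts in 1 cell of 111.4 CPM. Intervals cover counting error only, since the method counts PCR copies of reads.

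**Figure D2:**
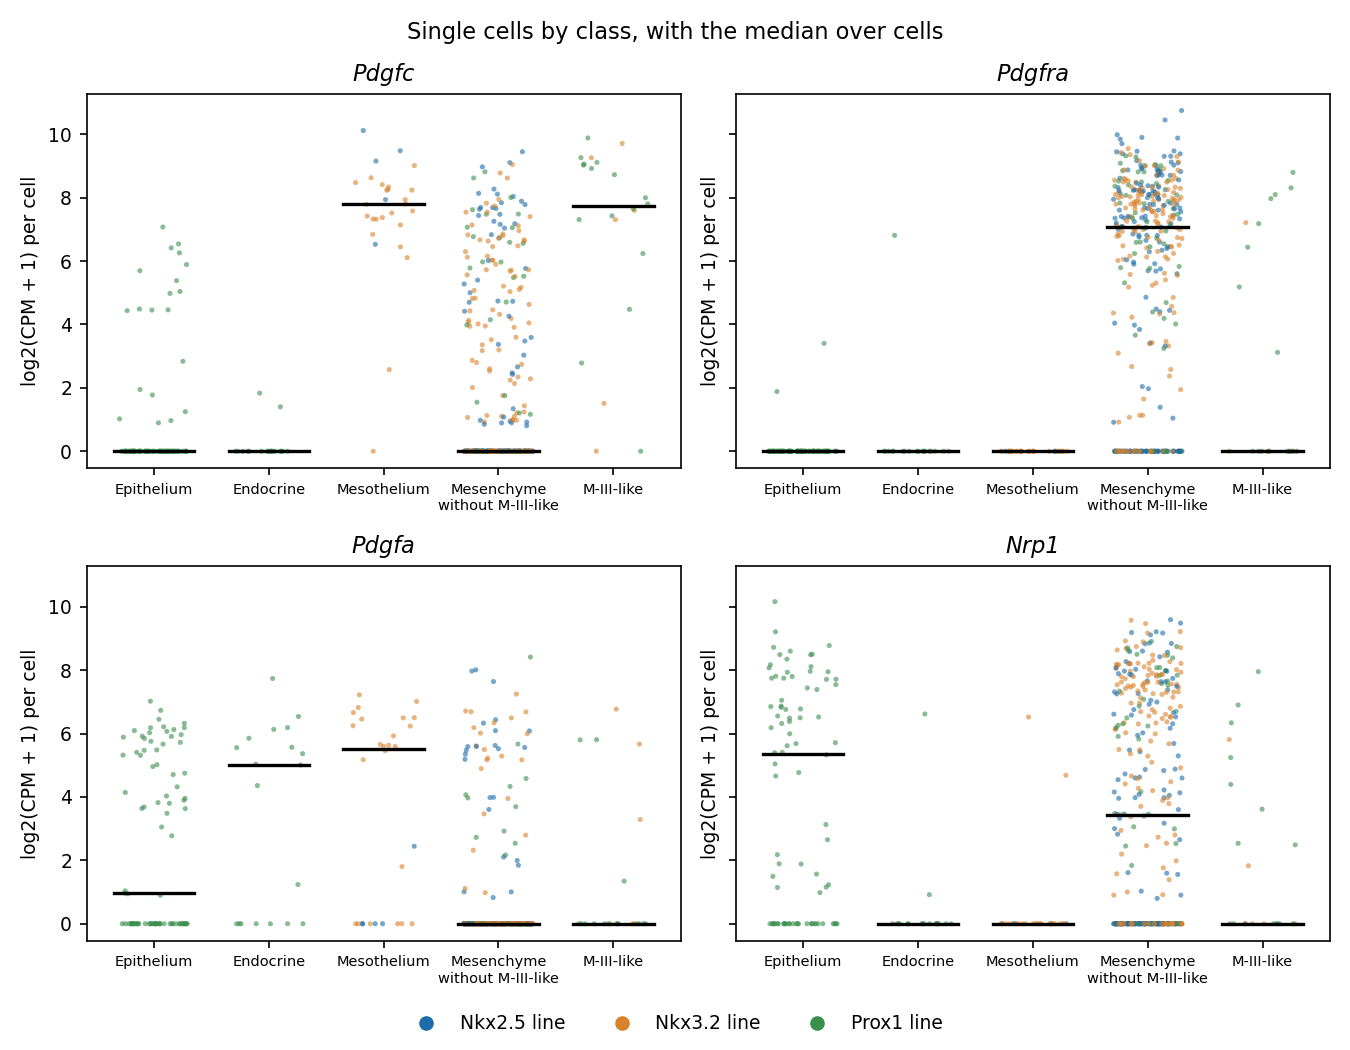
Level in each cell, as log2(CPM + 1) with 1 point a cell coloured by line, of Pdgfc, Pdgfra, Pdgfa and Nrp1 in epithelium, endocrine cells, mesothelium, mesenchyme without its M-III-like cells, and M-III-like cells, where the black bar is the median over cells. All 28 mesothelial cells sit at 0 for Pdgfra while 27 of them are above 0 for Pdgfc.

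The Vegf ligands were low in all sorted cells. Vegfa, the main attractant of endothelial cells (chr17:46016993-46032369, minus strand), had 2.08 and 13.1 CPM in endocrine cells, 2.78 and 4.41 CPM in the other epithelium and 4.43 to 7.54 CPM on the 6 mesenchymal plates. The higher epithelial plate lay just below the lowest mesenchymal plate, within the counting error of both, and the endocrine plates spanned both classes. Mesothelium stood apart with 1 count in 28 cells (0.0413 CPM). Vegfa was detected in 36.05% of epithelial and 24.7% of mesenchymal cells, and in 23.3% and 15.01% after thinning. Vegfc, a ligand of lymphatic growth (chr8:54077606-54187096, plus strand), had no count in 86 epithelial and 19 endocrine cells, 3 counts in mesothelium, and 2.91 CPM in mesenchyme, from 20 of 413 cells.

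The signalling receptors for Vegf were rare. Kdr, the main signalling receptor (chr5:75932827-75978458, minus strand), was detected in 44 of 413 mesenchymal cells (10.7%) at 5.08 CPM, and 51% of its counts came from 5 cells. In 10 of these cells it reached 100 CPM, and the plates ranged from 0.768 to 15.9 CPM, both extremes in the Prox1 line. In 37 of the 44 cells Nrp1 was detected too. It was found in 5 mesothelial cells, all of the Nkx3.2 line, in 4 epithelial cells with 6 counts and in no endocrine cell. Flt1, a Vegfa receptor that also acts as a decoy (chr5:147561604-147726011, minus strand), stayed between 0.0998 and 0.383 CPM in the 4 classes and was found in 13.6% of mesenchymal cells, or 2.66% after thinning.

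Nrp1 (chr8:128358604-128503363, plus strand) was the abundant Vegf-binding gene. In epithelium it had 142.8 and 80.3 CPM on the plates and was detected in 58 of 86 cells (67.4%), with 149.9 CPM in tip-like, 114.1 CPM in cycling and 37.5 CPM in trunk-like cells. In mesenchyme it had 63.5 and 77.5 CPM on the Nkx2.5 plates, 121.4 and 96.7 CPM on the Nkx3.2 plates and 116.7 and 70.2 CPM on the Prox1 plates, with 237 of 413 cells positive (57.4%). Epithelial and mesenchymal plates overlapped. Endocrine cells had Nrp1 in 2 of 19 cells with 99% of counts in 1 of them, and mesothelium in 2 of 28 cells (3.22 CPM). Angpt1 (chr15:42424723-42676977, minus strand) was largely a mesenchymal transcript, at 5.15 and 2.55 CPM on the Nkx2.5 plates, 7.25 and 18.2 CPM on the Nkx3.2 plates and 25.3 and 33.8 CPM on the Prox1 plates, with 59 of 413 cells positive (14.3%). The Prox1 plates lay above the others and the Nkx2.5 plates below them. Epithelium had 0.894 CPM with 95.4% of counts in 1 cell, and in mesothelium 99.1% of counts came from 1 cell of the Nkx2.5 line.

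**Figure D3:**
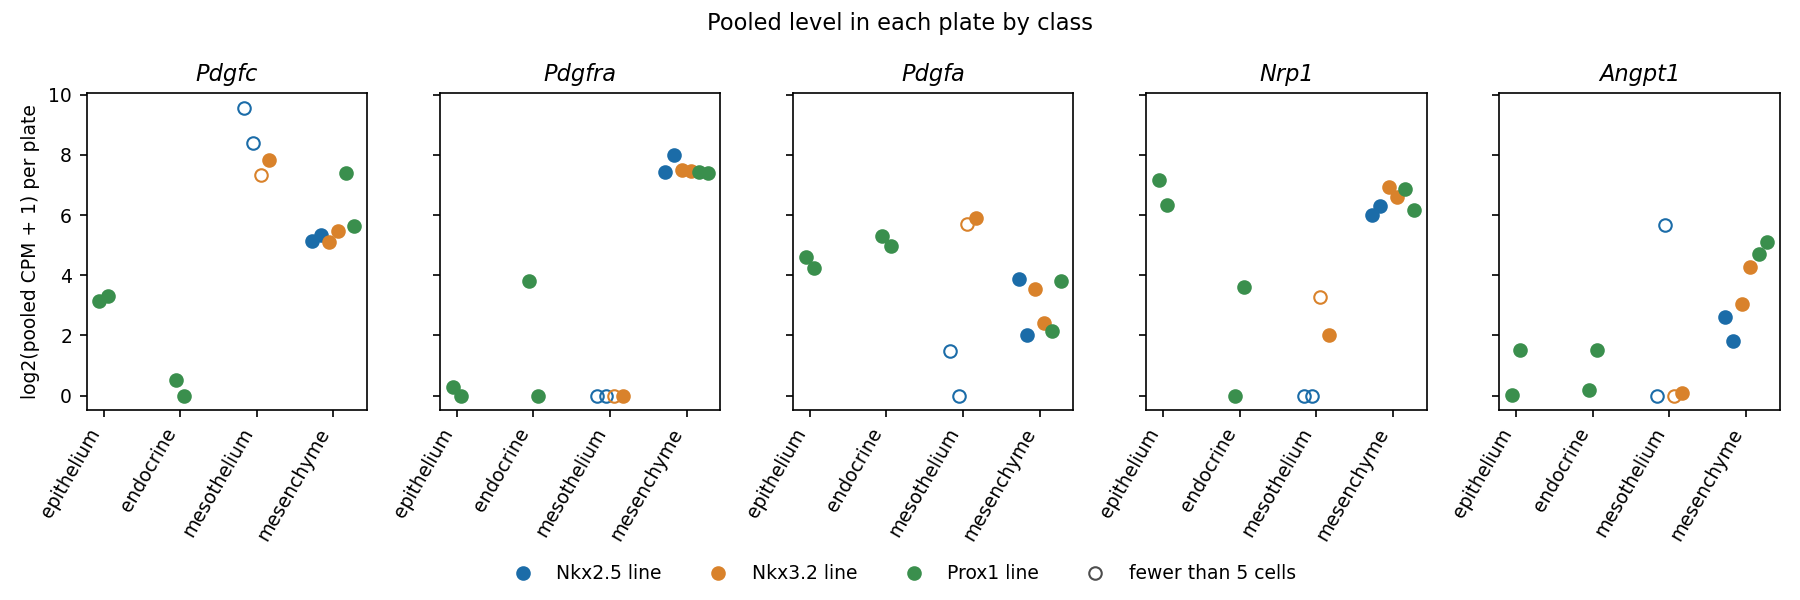
Pooled level per plate, as log2(CPM + 1), of Pdgfc, Pdgfra, Pdgfa, Nrp1 and Angpt1 in the 4 classes, with open circles for groups of under 5 cells. The 6 mesenchymal plates of Pdgfra lie between 165.9 and 252 CPM, and those of Angpt1 spread from 2.55 to 33.8 CPM.

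The comparison of epithelium with mesenchyme asks which side of the bud makes each signal and which receives it, and was made within the Prox1 line, where both shared plates. A gene was called higher or lower where its pooled CPM differed at least 2-fold, in the same direction on every pair of plates with 5 or more cells on both sides, among genes at 5 CPM or more in at least 1 group. Of 11767 genes tested, 29.9% were called, 15.4% higher in epithelium and 14.5% lower. Of the 10 genes, 7 passed the 5 CPM limit: Pdgfa was higher in epithelium, and Pdgfra, Pdgfc, Angpt1 and Kdr were lower. Pdgfra differed most, 1356-fold (714 to 2965), then Kdr (83.1-fold, 37.9 to 227, from 6 epithelial counts), Angpt1 (33.9-fold) and Pdgfc (11.7-fold). The Pdgfa difference was 2.28-fold and uneven, with log2 differences of 2.47 and 0.42 on the plates, and was no longer called on the second plate alone. Log2 differences are of CPM + 1, and without the highest cell that of Pdgfa went from 1.11 to 2.19. Kdr was not called on the second plate alone (-0.78) or without the highest cell (-2.31). The Nrp1 ratio of 1.28 and the Vegfa ratio of 0.631 were below the 2-fold limit. The median log2 difference of the 7 genes was -2.86, against 0.00 over all tested genes.

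Endocrine cells were compared with the other epithelium of the same plates, where 42.6% of 12084 genes were called, 18.7% higher and 23.9% lower. Among 5 of the 10 genes that passed, Nrp1 was 17.6-fold lower in endocrine cells and Pdgfc 43.6-fold lower (14.8 to 212, from 3 counts), a log2 difference of -2.96 that was 0.72 with classes set per cell from markers. Pdgfa was 1.63 times as high and was not called, with log2 differences of 0.69 and 0.74 on the plates. Vegfa was 2.37 times as high in the pool but ran in opposite directions on the plates (-0.30 and 1.38). Pdgfra rested on 1 endocrine cell. The median over the 5 genes was 0.68, against -0.09 over all tested genes.

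Mesothelium, the sheet that covers the bud, was compared with the mesenchyme of its own line. In the Nkx3.2 line 27.4% of 11596 genes were called (13.6% higher, 13.7% lower), on the second plate alone since the first held 3 mesothelial cells. Pdgfa was 7.05-fold and Pdgfc 5.70-fold higher in mesothelium, Nrp1 was 27.4-fold lower, and Angpt1, with 1 count, was 221-fold lower (39.6 to 8729). Pdgfra had no count in the 23 mesothelial cells, at least 1139.6-fold lower against a floor of 3 summed counts. As 1 positive cell can hold many more than 3 counts, this bound is on reads and not on the share of cells. Kdr, at 9.08 CPM against 6.05 CPM in the pool, was lower in mesothelium on the second plate (log2 difference -1.21) and was not called. In the Nkx2.5 line, with 5 mesothelial cells and no pair of plates to set direction, 55.6% of 11189 genes passed the 2-fold limit (17.7% higher, 37.9% lower), among them Pdgfc (15.4-fold higher), Pdgfra (at least 355.7-fold lower) and Nrp1 (at least 118.4-fold lower). Vegfa had no count (at least 11.4-fold lower), Pdgfa was 8.61-fold lower (from 5 counts) and Angpt1 5.74-fold higher through 1 cell. These bounds too are on reads. Vegfa was detected in a minority of the mesenchymal cells of this line, and Nrp1 in 46.4% of them. The lack of a positive cell among 5 therefore sets no minimum fold across cells for either gene. Classes set per cell from markers put 27 cells of this line in mesothelium instead of 5, and the Vegfa difference turned from -2.95 to 0.64 on the log2 scale. Without its highest cell the Angpt1 difference turned from 2.25 to -2.06. The directions of Pdgfc, Pdgfra and Nrp1 were thus shared by both lines, and those of Pdgfa and Angpt1 were opposite. The median over the 6 genes that passed was -1.53 (Nkx3.2) and -2.60 (Nkx2.5), against 0.01 and -0.32 over all tested genes.

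The mesenchyme of the 3 lines differed less. Between the Nkx2.5 and Nkx3.2 lines 10.9% of 11065 genes were called (4.55% higher, 6.35% lower), and of 7 genes that passed only Angpt1 was, 2.96-fold lower in the Nkx2.5 line with log2 differences from -2.44 to -0.42 over 4 pairs of plates. In pooled CPM Pdgfc (ratio 0.983) and Pdgfra (1.182) were close to equal, and Nrp1 was at 0.628. The ratio of Pdgfa, 1.05, hid plate pairs from -1.52 to 1.47. Detection differed between these lines, which had equal numbers of mesenchymal cells. Pdgfc was found in 29 Nkx2.5 cells with Pdgfra and 19 without, against 71 and 14 Nkx3.2 cells. Pdgfra was detected in 69.6% and 85.7% of cells. Both genes were also found in fewer Nkx2.5 cells after thinning, and the median number of detected genes was lower in that line. Within clusters Pdgfc did not follow the pool: in cluster 0 the Nkx2.5 line had 60.99 CPM and the Nkx3.2 line 25.7 CPM. In cluster 4 the levels were 23.5 and 51.2 CPM in the same order, and in splenopancreatic-like cells 2.81 and 36.3 CPM. The direction held on every usable pair of plates in each. The cluster 0 level of the Nkx2.5 line rested largely on cells at 550.2 CPM (first plate) and 699.2 CPM (second plate). A larger share of cluster 0 cells was positive in the Nkx3.2 line, so that direction is one of pooled level only. The cluster 4 level of the Nkx2.5 line also came mostly from few cells. Between the Prox1 and Nkx3.2 lines 10.1% of 11126 genes were called (4.42% higher, 5.64% lower), among them Angpt1 (2.63-fold higher in the Prox1 line) and Pdgfc (2.59-fold higher). The Pdgfc difference ran from 0.16 to 2.30 over 4 pairs of plates. Without the M-III-like cells, which the Prox1 line holds 16 of 22 of, its log2 difference went from 1.35 to 0.48 and it was not called, while that of Angpt1 was 1.32 with them and 1.31 without.

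Clusters had been made without these genes, so their levels could be set against the rest of the mesenchyme as a description. M-III-like cells, with Isl1 at 484 CPM and Col14a1 at 401 CPM, had Pdgfc at 257 CPM in the Nkx3.2 line, next to 431 and 190.7 CPM on the Prox1 plates, with 20 of 22 cells positive, 8.57-fold above the other mesenchyme. In the same cells Pdgfra was 2.32-fold lower (84.4 CPM, 9 of 22 cells), Nrp1 3.62-fold lower and Kdr 39.8-fold lower (11 to 329, from 2 counts), where 19% of 11462 genes were called (6.94% higher, 12% lower). Kdr was detected in 2 of 22 M-III-like cells and in 44 of all 413 mesenchymal cells, a similar share. Its log2 differences on the 2 Prox1 plates were -4.48 and -0.39, so the fold reflects rare cells with many counts elsewhere. The median M-III-like cell had 211 CPM of Pdgfc, next to 221 CPM in the median mesothelial cell. Angpt1 was 47.1 CPM there, but the plates differed in direction and it was not called.

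Mural-like cells had the smooth muscle gene Acta2 at 626 CPM, while Rgs5, on the same marker list, was at 308 CPM there and at 581 CPM in cluster 3. They had the highest pooled Nrp1 of any mesenchymal cluster (192.5 CPM), with 206 and 191.6 CPM on the Nkx3.2 plates and 171.3 CPM in 6 Prox1 cells, 35 of 41 cells positive and a level 2.44-fold above the rest. On single plates, the 6 proliferating-like cells of the first Prox1 plate were higher still (209.2 CPM). In mural-like cells Pdgfa was 2.996-fold higher than in the rest, though 44.1% of its counts came from 1 cell, and Pdgfc was 5.38-fold lower (9.30 CPM). For the mural-like cluster 7.88% of 11224 genes were called (2.74% higher, 5.14% lower). Vegfc (8.09 CPM, 5 cells), Kdr (11.8 CPM) and Angpt1 (30.6 CPM) were higher in the pool but not on every plate. Cluster 3, of which 57 of 65 cells came from the Nkx2.5 line, had Angpt1 7.03-fold lower (1.84 CPM) with 12.1% of 11151 genes called (4.71% higher, 7.38% lower), and splenopancreatic-like cells had Pdgfa 2.31-fold lower with 7.68% of 11038 called (1.55% higher, 6.13% lower). None of the genes was called in cluster 0 (1.74% of all genes, 0.163% higher and 1.58% lower), cluster 4 (4.47%, 0.181% higher and 4.29% lower) or proliferating-like cells (4.69%, 2.92% higher and 1.77% lower). Pdgfra, by contrast, was called in M-III-like cells alone and lay between 163.2 and 266 CPM in the other 6 clusters.

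**Figure D4:**
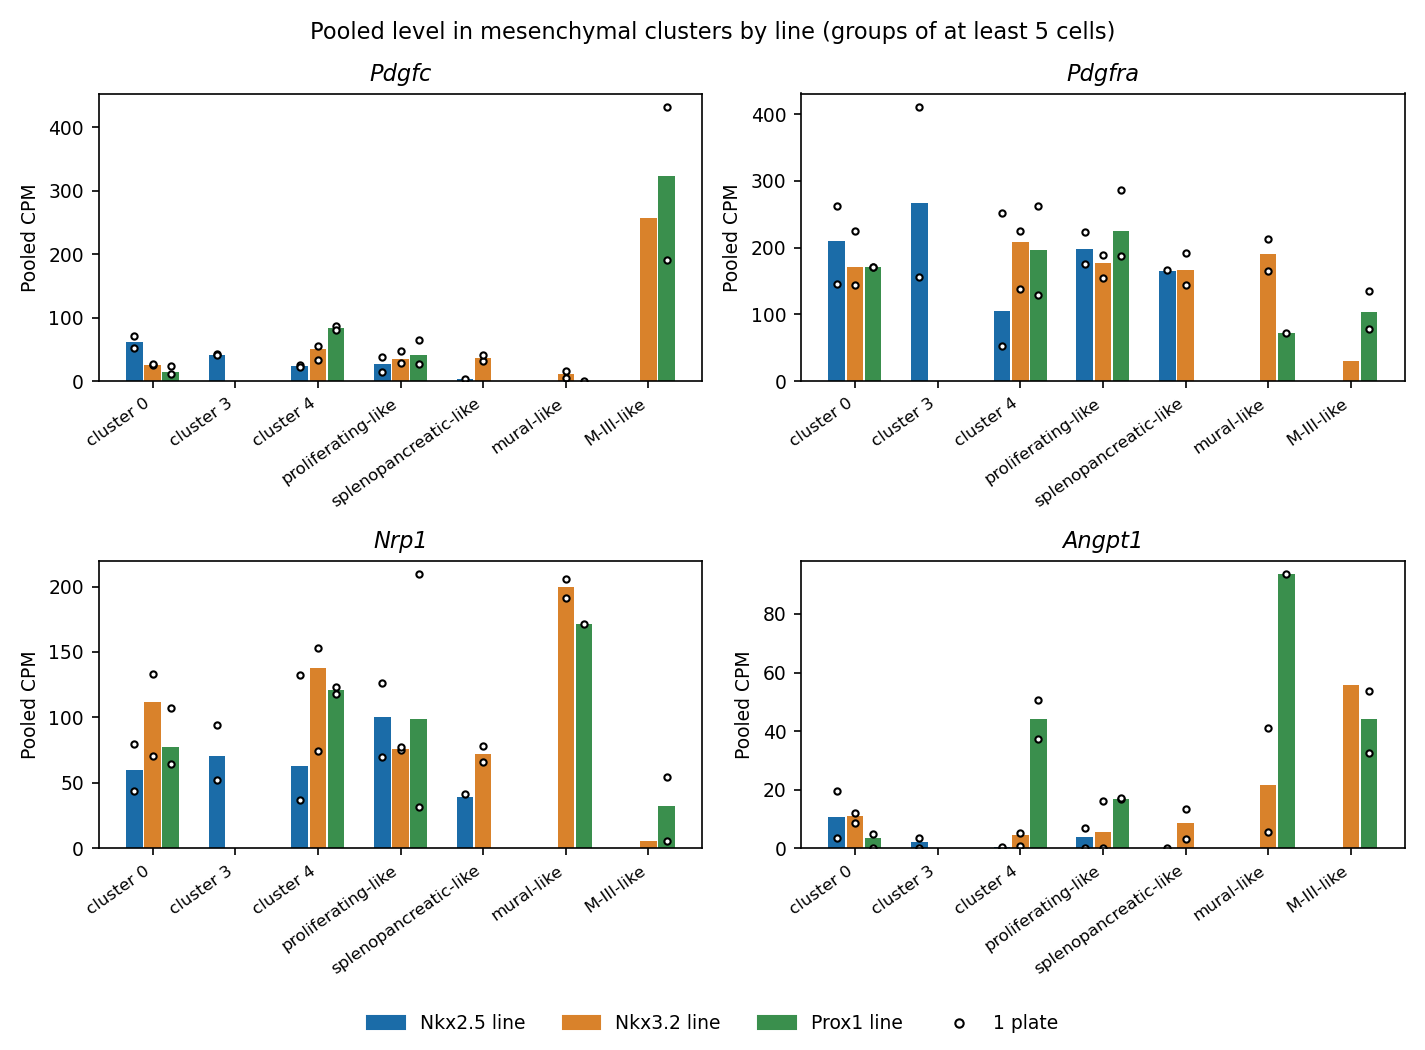
Pooled CPM of Pdgfc, Pdgfra, Nrp1 and Angpt1 in the 7 mesenchymal clusters, with bars for each line with at least 5 cells and circles for single plates. M-III-like cells have the highest Pdgfc bars (257 and 322 CPM) and mural-like cells have high Nrp1 bars (199 and 171.3 CPM).

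Ligand and receptor were then counted in the same cells. Among mesenchymal cells, 30.02% of 413 had both Pdgfc and Pdgfra, and 48 (11.6%) had both Pdgfa and Pdgfra. Cells with Pdgfc had Pdgfra in 72.5% of cases and cells with Pdgfa in 76.2%, next to 76.5% of all mesenchymal cells, so a ligand-positive cell was about as often receptor-positive as the mesenchyme as a whole. In mesothelium the ligands stood alone: 27 of 28 cells had Pdgfc without Pdgfra and 18 had Pdgfa without it. Among M-III-like cells 9 of 22 had both Pdgfc and Pdgfra, 11 had the ligand only, and none the receptor only. In the epithelium 43 cells had Pdgfa without Pdgfra and 2 had both. Vegfa met Nrp1 in 20 of 86 epithelial cells (23.3%) and in 59 of 413 mesenchymal cells (14.3%), but met Kdr in 8 (1.94%) and Flt1 in 13 (3.15%) of the latter. Shares depend on depth, and after thinning they stood at 22.3% for Pdgfc with Pdgfra and 7.51% for Vegfa with Nrp1 in mesenchyme.

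**Figure D5:**
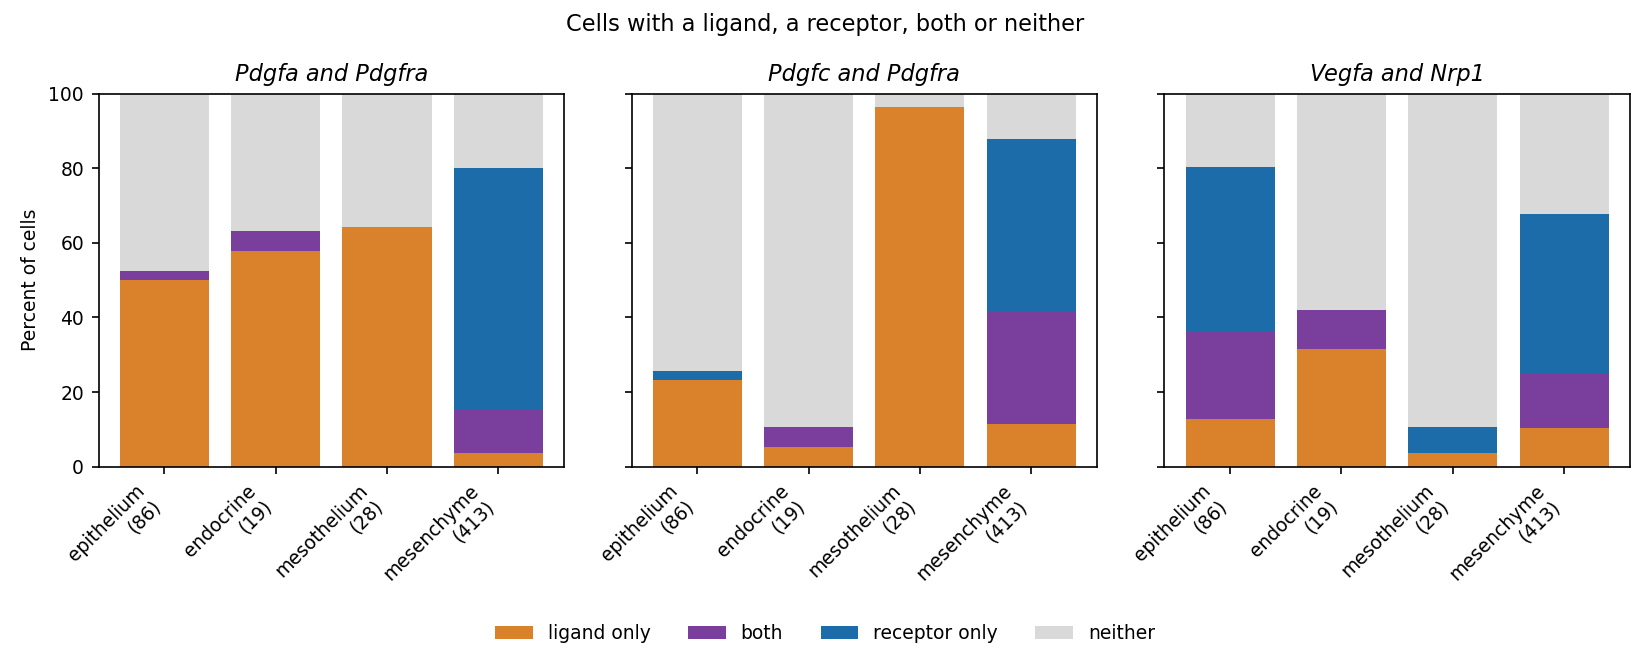
Percentage of cells with the ligand only, both genes, the receptor only or neither, as stacked bars by class, for Pdgfa with Pdgfra, Pdgfc with Pdgfra and Vegfa with Nrp1. In mesothelium the Pdgfc with Pdgfra bar is ligand only apart from 1 cell, and in mesenchyme 30.02% of cells hold both.

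The other genes of these pathways were read from lists of 17 ligands, receptors and semaphorins, 6 feedback and response genes and 12 low-oxygen genes. Of the 17, 10 passed the 5 CPM limit in the comparison of epithelium with mesenchyme, and 2 were called higher and 5 lower, where 15.4% of all genes were higher and 14.5% lower. Sema3c, a semaphorin that binds neuropilins, was higher (62.3 against 0.153 CPM) with Pdgfd, another Pdgf chain (9.46 CPM against none, at least 186.1-fold). The neuropilin Nrp2 (45.5-fold), the Tek ligand Angpt2 (110-fold, from 8 epithelial counts), the semaphorin Sema3a (120.7-fold), the receptor-like gene Pdgfrl (12.5 CPM against 0.0646 CPM) and Pgf, a ligand of Flt1 (3.44-fold), were lower.

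In the Nkx3.2 mesothelium 12 of the 17 passed, and 6 were called higher and 2 lower, beside 13.6% and 13.7% of all genes. Sema3c was at 94.03 CPM against 0.345 CPM, Pdgfd at 18.01 CPM against 1.55 CPM, Nrp2 at 59.3 CPM against 22.7 CPM and Sema3a at 54.6 CPM against 21.3 CPM. Angpt4, another Tek ligand, was 5.86-fold and Sema3d 3.27-fold higher, while Plxnd1, a receptor for semaphorins, was 22.1-fold and Angpt2 20.8-fold lower. In the 5 mesothelial cells of the Nkx2.5 line 5 of 11 were higher, beside 17.7% of all genes, and 5 lower, beside 37.9%. Sema3c (21.1 CPM against 0.0409 CPM), Nrp2 (13-fold), Sema3a (2.96-fold) and lower Plxnd1 and Angpt2 were called there too. Pgf (5.17-fold) and Vegfb, a ligand of Flt1 (2.87-fold), were also higher, and Pdgfrl, Tek and Sema3d were also lower, so Sema3d, at 2 counts in these cells, ran in opposite directions in the 2 lines.

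In endocrine cells 8 of the 17 passed, with 3 called higher and 3 lower than in the other epithelium, beside 18.7% and 23.9% of all genes. Pgf was 8.10-fold higher (28.3 CPM), Pdgfrl was at 42.7 CPM against 0.0646 CPM and Sema3a at 6.66 CPM against 0.165 CPM. Sema3c was 982-fold lower (176.1 to 38785, from 1 count), Pdgfd 2.92-fold and Vegfb 2.71-fold lower. Between the lines of mesenchyme, Sema3a was 2.77-fold higher and Vegfb 2.77-fold lower in the Nkx2.5 than in the Nkx3.2 line, out of 10 that passed, beside 10.9% of all genes called. None of 8 was called between the Prox1 and Nkx3.2 lines, beside 10.1% of all genes.

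The response genes are induced by receptor tyrosine kinase signalling through Erk, and by many ligands other than these. In the Nkx3.2 mesothelium 4 of 5 that passed were called lower and none higher, where 13.7% of all genes were lower: Spry1 (9.71-fold), Dusp6 (9.11-fold), Spred1 (4.44-fold) and Spry2 (3.07-fold), with a median log2 difference of -2.03 against 0.01 over all tested genes. In the Nkx2.5 mesothelium these 4 and Etv5 were lower, 5 of 5 that passed, where 37.9% of all genes were, and Dusp6, Spry1 and Etv5 had no count in its 5 cells. In epithelium against mesenchyme 3 of 6 were lower, beside 14.5% of all genes: Spred1 (4.15-fold), Spry1 (3.34-fold) and Spry2 (2.58-fold). In endocrine cells 4 of 6 were lower than in the other epithelium, beside 23.9% of all genes: Dusp6 (2.95-fold), Spry1 (5.28-fold), Etv5 (4.33-fold) and Etv4 (at least 38.9-fold). In the mesenchyme of the Nkx2.5 line Spry2 was 3.27-fold higher and Etv5 2.997-fold and Dusp6 2.03-fold lower than in the Nkx3.2 line, and in that of the Prox1 line Spry2 was 2.18-fold higher and Spry1 2.12-fold lower, each out of 5 that passed. Of all genes, 10.9% were called in the first of these comparisons and 10.1% in the second.

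Of the low-oxygen genes, the enzyme genes Ldha and Pdk1 were higher in epithelium than in mesenchyme (2.06-fold and 2.14-fold) out of 9 that passed, and none was lower, beside 15.4% and 14.5% of all genes. In endocrine cells 3 of 9 were higher, Ankrd37 (3.88-fold), Egln1 (2.76-fold) and Bnip3 (2.26-fold), and 2 lower, Ldha (21.6-fold) and Pdk1 (4.22-fold), beside 42.6% of all genes called. In the Nkx3.2 mesothelium Pdk1 was higher (2.09-fold), and Egln1 (2.14-fold) and Epas1 (no count, at least 118.9-fold), a low-oxygen transcription factor, were lower, 3 of 10 beside 27.4% of all genes. In the Nkx2.5 mesothelium 5 of 9 were called, beside 55.6% of all genes: Slc2a1, Pdk1 and Egln3 higher and Egln1 and Vhl lower. Epas1 was 6.41-fold lower in Nkx2.5 and 8.02-fold lower in Prox1 mesenchyme than in the Nkx3.2 line, and Ldha was 2.48-fold lower in the Nkx2.5 mesenchyme. In each comparison 10 of the low-oxygen genes passed, and 10.9% (Nkx2.5) and 10.1% (Prox1) of all genes were called.

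Over 33 groups of class or cluster and plate with at least 5 cells, the genes whose log2(CPM + 1) was most like that of Pdgfra, out of 12129 with a symbol, were Ednrb (Pearson r 0.94), Twist2 (0.94) and Nkx2-3 (0.93). The nearest to Pdgfc were Cdc42ep3 (0.81), Bdh2 (0.80) and Zfhx4 (0.80), and the nearest to Pdgfa were Nap1l2 (0.79), 2310030G06Rik (0.77) and Hagh (0.76). Nrp1 went with Mtap (0.78), Sf3b5 (0.76) and Slc38a4 (0.75), while Angpt1 (at most 0.65, Elp5), Kdr (0.66, Ptx3) and Vegfa (0.57, Saraf) had weaker neighbours. The groups share lines and plates, and 8 of the 21 genes were also among the nearest 3 by Spearman rank, so the lists are a description only.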

How the data were processed

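Single cells were matched to lines and plates by the library names in the labels. The authors quantified reads with kallisto on GRCm38 after trimming with Trim Galore 0.6.5 (per the submitters' processing notes), and the table they deposited gives each gene's estimated count in each cell, not normalized. Of values above 0, 36.1% were not whole, and copies made by PCR are included. The annotation release is not given in the sources used here. Gene names, coordinates and exon lengths came from GENCODE M21, and 35866 of 36658 identifiers had a symbol.

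Cells were kept at 1000 or more genes, 100000 or more counts and a mitochondrial share of up to 30%, with no doublet caller. They were clustered in Seurat 5.3.0 (R 4.3.3) with 20 components at resolution 1.9, on 2000 variable genes without the genes of the lists, and 3 cells were set aside after their values were seen (1 with immune markers over 1000 CPM, 2 with endocrine progenitor and epithelial genes away from their class). Counts were summed by class, line and plate into CPM with exact Poisson intervals, and shares of cells got exact binomial intervals at the 95% level (Python 3.11.15, numpy 2.4.6, pandas 2.3.3, scipy 1.17.1, matplotlib 3.10.9). Calls needed a 2-fold ratio of pooled CPM, 5 CPM in at least 1 group and 1 direction on every pair of plates with 5 cells or more. Differences are on the log2(CPM + 1) scale, with a pseudocount of 1 CPM. The comparison script was tested on simulated counts. Each line is 1 sample, so no count model was fitted, and edgeR 4.0.16 gave scaling factors for an alternative only.

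The members and gene lists were chosen with earlier results of these data known. The 10 members are named in every comparison, list genes are named where they reach 5 CPM and were called between classes or lines (calls between clusters are not given), and for members at 20 CPM in a group the 3 genes of highest Pearson r are named. A few list genes are not reported here. Promoters are from RefSeq (GRCm38.p6). The in situ, published and adult data were not analysed here.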

Additional observations from a re-analysis of the deposited data

Results flagged for a closer look

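Mesothelium differed from mesenchyme in opposite directions in the 2 lines for Angpt1 and Pdgfa. On the log2(CPM + 1) scale, the Angpt1 difference was -3.57 for Nkx3.2-Cre and 2.25 for Nkx2.5-Cre, where all counts came from 1 of 5 cells. For Pdgfa it was 2.67 with Nkx3.2-Cre and -2.26 with Nkx2.5-Cre. The difference between the lines was not tested, as each line is 1 sample.

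Some signal lay outside the cells compared. The 27 wells that failed the filters held Pdgfra at 61.8 CPM, from 16 counts in 2 wells, 93.8% of them in 1. The 3 cells set aside held Pdgfa at 48.3 CPM, Pdgfb at 8.78 CPM, Nrp1 at 6.58 CPM and Vegfa at 1.76 CPM. All of these lay above the limit that a count of 0 allows.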

How the results depend on the processing

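No paired analysis was possible because the replicate numbers name single wells and no result comes from a test. Groups of 1 line that shared plates were set against each other plate by plate in the calls. The stricter cell filter, edgeR scaling and the removal of cells with markers of another class left the number of members called within 1.5 times of the value reported. A lower clustering resolution gave the same number of cells in each class and line, so it tests nothing there. Other settings moved it, and the cause was not tested. Epithelium against mesenchyme called 5 members and 3 on the second plate alone. Endocrine cells against epithelium called 2, then 4 with no floor and 1 with a floor of 20 CPM. Mesothelium in the Nkx3.2 line called 5, then 8 with no floor, and in the Nkx2.5 line 6, then 3 with classes set per cell from markers. The Nkx2.5 against Nkx3.2 mesenchyme called 1, then 3 with no floor or a 1.5-fold limit, 0 with a floor of 20 CPM or a 3-fold limit and 4 within splenopancreatic-like cells. The Prox1 against Nkx3.2 mesenchyme called 2, then 5 on the first plates, 4 with no floor, 0 at 3-fold, and 1 with the mean of single-cell CPM, without the highest cell or without M-III-like cells. Clusters called 9 in all, then 20 and 15 on the first and second plates alone and 5 at 3-fold. Single plates ask for agreement over fewer pairs of plates, and no floor lets in genes of lower level. The share of all genes called is not given for these settings, so the changes are not read as results about the members.

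With classes set per cell, Pdgfc in endocrine cells turned from -2.96 to 0.72 and Vegfa in the Nkx2.5 mesothelium from -2.95 to 0.64, and without its highest cell Angpt1 in the latter turned from 2.25 to -2.06. The per-cell classes were made of other cells than the clusters. They held 27 (Nkx2.5), 38 (Nkx3.2) and 7 (Prox1) mesothelial cells, and 14, 7 and 22 endocrine cells in the same order. Mesenchymal co-detection was 8.23% (Pdgfa with Pdgfra), 22.3% (Pdgfc with Pdgfra), 0.484% (Vegfa with Kdr), 0% (Vegfa with Flt1) and 7.51% (Vegfa with Nrp1) after thinning. At 5 counts or more it was 22.5% for Pdgfc with Pdgfra, 0.726% for Vegfa with Kdr, 0.484% for Vegfa with Flt1 and 8.96% for Vegfa with Nrp1. By Spearman rank 8 of 21 nearest genes stayed. The highest cell and the M-III-like cells were chosen for removal after seeing the data. Single plates gave no value for mesothelium in the Nkx2.5 line or on the first Nkx3.2 plate.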
